A study of Homo sapiens with 60 samples.

Results

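Mercury changes the RNA of the human astrocytoma cell line 1321N1 both after 12 h and after 24 h, and the question here is which of these changes were stronger at the later time and which had faded. The comparison was the interaction of treatment and time: for each gene, the log2 fold change (LFC) of mercury-treated over non-treated cells at 24 h minus the same LFC at 12 h, hereafter the difference between time points. It rests on 12 of the 60 libraries of the series, 3 in each of 4 groups: cells with 20 µM mercury chloride for 12 h or 24 h and non-treated cells collected at 12 h or 24 h. All 4 groups were the same cell line, which the study uses as a model of astrocytes, in the same DMEM medium, and the mercury concentration had been chosen from cell viability at a later time than those sampled. The non-treated libraries also served as controls for cells treated with arsenic (2.55 µM) or cadmium (2.3 µM). The series description calls the triplicates technical, whereas the study mentions independent experiments for a set of assays that includes this one, so the p values measure the spread between these libraries, which may be technical. Of 12341 genes tested, 77 differed between time points at an adjusted p under 0.05 (edgeR), and these 77 genes are described below.

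Inorganic mercury binds thiol groups of proteins and of glutathione. Modified thiols on KEAP1 release the transcription factor NRF2, which acts on antioxidant response elements (AREs) of genes for glutathione synthesis, heme breakdown, iron storage, and export of conjugates. Immediate-early genes, which encode transcription factors such as the AP-1 subunits, are switched on by many stresses within a short time and are usually switched off again. Adherent cells hold on to a matrix of collagens and laminins through integrins, which vinculin and other proteins couple to actin, and the factors YAP and SRF adjust many genes of this machinery. Because non-treated cells also change in culture, the difference between time points can come from the mercury-treated libraries, from the non-treated libraries, or from both, and each arm is therefore given.

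Expression was measured by sequencing the 3′ ends of polyadenylated RNA, and values are given in CPM, counts scaled to the normalised library size. The 12 libraries held 2493730 to 3857780 counts, the fewest in replicate 1 of mercury at 12 h, and 14987 to 15982 genes with at least 1 count. Genes of the mitochondrial chromosome took 7.1% to 7.23% of the counts with 24 h of mercury and 5.16% to 6.81% of the other libraries' counts, and the part of this shift in the results was not tested. Of 17 astrocyte markers, GFAP, AQP4, ALDH1L1, FABP7, and HEPACAM had no counts in any of the 12 libraries, whereas VIM (3410 to 4440 CPM), CD44 (302 to 389), NFIB (173 to 261), NFIA (79.6 to 136), and SOX9 (48.4 to 98.1) were present throughout, GLUL (19.2 to 34.7) and GJA1 (14.7 to 24.4) were present at lower levels, and the other 5 reached at most 6.22 CPM. Summed markers of oligodendrocytes reached at most 71.6 CPM, those of neurons 37.7 CPM, those of endothelial cells 4.12 CPM, and those of microglia 1.61 CPM. In bulk RNA, fewer cells with a transcript and less of it per cell cannot be told apart.

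The 77 genes were 0.624% of those tested, with 37 above 0 (0.3%) and 40 below (0.324%), and 21 of them (0.17%) differed by more than 1 on the log2 scale. These 21 are counted by fitted size, and a test of a difference beyond 1 (glmTreat) passed for 0 genes. For scale, mercury changed 1980 genes (16%) at 12 h and 3433 genes (27.8%) at 24 h, and the median difference over all genes was 0.00. Of the 77 genes, 28 rose more at 24 h than at 12 h (strengthened rises), and 24 fell more (strengthened falls). In 7 genes a rise at 12 h had faded at 24 h, in 3 a fall had faded, and 2 reversed from higher to lower. The last 13 had effects of opposite sign at the 2 times of which only that at 24 h passed the test, 6 ending higher and 7 ending lower. The call itself requires a difference, so these classes describe the genes and are no further test. In the strengthened rises, the median LFC was 0.55 at 12 h and 1.54 at 24 h, and in the strengthened falls it was -0.23 and -0.88. The faded rises went from a median of 0.56 to 0.03.

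**Figure D1:**
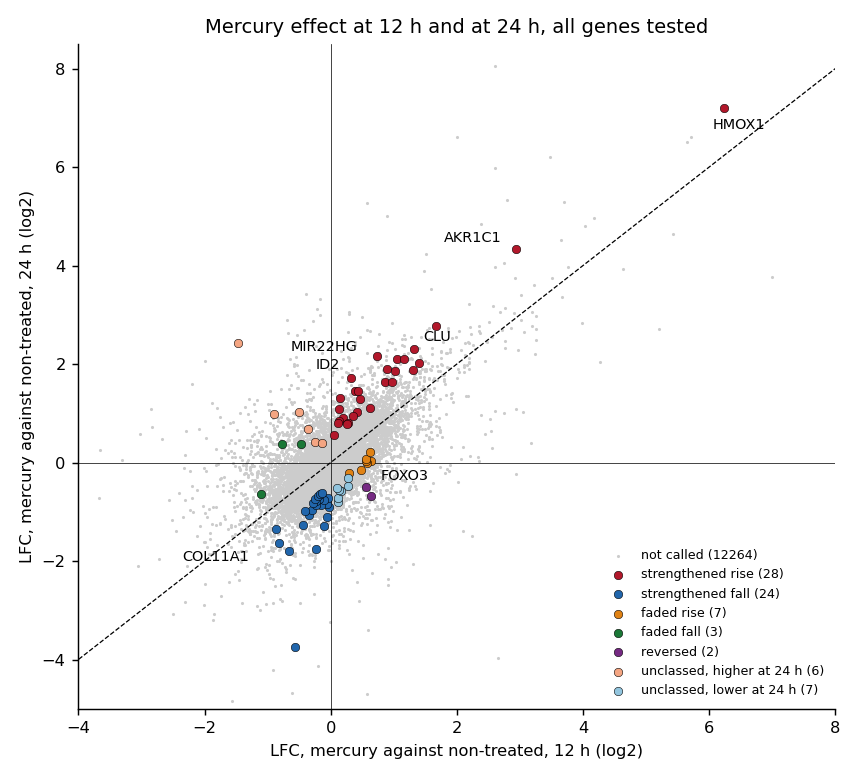
LFC of mercury-treated over non-treated cells at 24 h (vertical) against that at 12 h (horizontal) for the genes tested, on the log2 scale, with the 77 genes that differed between time points coloured by class and 4 genes outside the axes left out. Genes on the diagonal had the same LFC at both times; the 28 strengthened rises lie above it on the right, the 24 strengthened falls below it on the left, and the 7 faded rises below it near a 24 h LFC of 0.

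The largest group with a known function among the strengthened rises was that of NRF2 targets. Of 64 genes on a list of NRF2 targets and glutathione enzymes, 7 differed between time points, all with a stronger rise at 24 h: AKR1C1, ABCC2, HMOX1, FTL, SQSTM1, AKR1B1, and FTH1. The share of all genes tested that differed above 0 was 0.3%. The median difference of the list was 0.27, with 50 members above 0 and 14 below, against 0.00 over all genes tested. At 12 h, 34 of the 64 genes were higher with mercury, and at 24 h 44 were, beside 8.89% and 13.9% of all genes tested.

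AKR1C1, an aldo-keto reductase that reduces steroids and lipid aldehydes (chromosome 10 of GRCh38, 4963253 to 4983283, plus strand), had 15.9, 18.2, and 15.7 CPM in non-treated and 126, 118, and 137 CPM in mercury-treated cells at 12 h, and 17.0, 17.5, and 21.9 CPM in non-treated and 376, 412, and 354 CPM in mercury-treated cells at 24 h. The groups were separate at each time, and the libraries with 24 h of mercury lay above those with 12 h. The LFC was 2.93 at 12 h and 4.34 at 24 h, a difference of 1.40 ± 0.22 (SE, adjusted p = 9.37e-05). Of the 50-base stretches at the 3′ end of AKR1C1, 31.4% also occur in AKR1C2, AKR1C3, AKR1C4, or a pseudogene, so the count is uncertain between these copies. HMOX1, the enzyme that breaks down heme (chromosome 22 of GRCh38, 35380361 to 35394214, plus strand), had 18.7, 19.1, and 20.9 CPM in non-treated and 1169, 1665, and 1592 CPM in mercury-treated cells at 12 h, and 10.3, 15.7, and 12.98 CPM in non-treated and 1851, 2164, and 1700 CPM in mercury-treated cells at 24 h. It rose 75-fold at 12 h and 148-fold at 24 h, with a difference of 0.98 ± 0.25 (SE, adjusted p = 0.0483). For HMOX1, both arms moved: the mercury-treated libraries were higher and the non-treated libraries lower at 24 h, without overlap, but neither change passed its own test (0.37, adjusted p = 0.0894 and -0.61, adjusted p = 0.153).

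The light and heavy chains of ferritin, which stores iron set free from heme, both continued to rise. FTL (chromosome 19 of GRCh38, 48965309 to 48966879, plus strand) had 805, 736, and 805 CPM in non-treated and 1361, 1408, and 1507 CPM in mercury-treated cells at 12 h, and 806, 823, and 746 CPM in non-treated and 2265, 2506, and 2586 CPM in mercury-treated cells at 24 h. The non-treated libraries overlapped between time points, while mercury raised FTL in every library at 12 h and further at 24 h. The difference was 0.77 ± 0.12 (SE, adjusted p = 6.83e-05). FTH1 (chromosome 11 of GRCh38, 61959718 to 61967634, minus strand) went from an LFC of 1.30 to 1.88, a difference of 0.58 ± 0.11 (SE, adjusted p = 0.00172), with 26.1% of its 3′ stretches shared with pseudogenes. Unlike for FTL, both arms of FTH1 moved: its non-treated libraries at 24 h (649, 670.5, and 642 CPM) lay below those at 12 h (794, 753, and 743 CPM). SQSTM1, an autophagy receptor that also binds KEAP1, had 314, 265, and 293 CPM in non-treated and 706, 754, and 850.4 CPM in mercury-treated cells at 12 h, and 314, 307, and 255 CPM in non-treated and 1177, 1230, and 1133 CPM in mercury-treated cells at 24 h. Its LFC grew from 1.40 to 2.01, and the difference was 0.61 ± 0.13 (SE, adjusted p = 0.0054). ABCC2, an export pump for glutathione conjugates, was not significantly higher at 12 h (LFC 0.44, adjusted p = 0.117) and rose by 1.45 at 24 h, a difference of 1.01 ± 0.26 (SE, adjusted p = 0.0483). AKR1B1, aldose reductase, followed from 0.35 to 0.94 (0.59 ± 0.14 SE, adjusted p = 0.027). The differences of AKR1C1, FTL, SQSTM1, and FTH1 passed in every fit that left out 1 library. Those of HMOX1, ABCC2, and AKR1B1 passed in 3, 3, and 6 of the 12 fits. In this order, the highest adjusted p was 0.222 without replicate 1 of non-treated 24 h, 0.211 without replicate 1 of mercury 12 h, and 0.131 without replicate 1 of non-treated 12 h.

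A further group of strengthened rises encodes transcription factors and short-lived stress proteins. Of 44 immediate-early and AP-1 genes, 3 differed between time points, all above 0, of which ID2 and JUNB were strengthened rises and ID1 a faded fall, while the median of the list was 0.00, with 22 members on each side. Over all genes tested, 0.3% differed above 0. ID2, an inhibitor of helix-loop-helix transcription factors (chromosome 2 of GRCh38, 8678845 to 8684461, plus strand), had 41.95, 37.98, and 59.98 CPM in non-treated and 65.5, 60.9, and 50.6 CPM in mercury-treated cells at 12 h, and 55.1, 39.7, and 51.6 CPM in non-treated and 177, 154, and 150 CPM in mercury-treated cells at 24 h. Only the libraries with 24 h of mercury stood above the others, and the difference was 1.38 ± 0.21 (SE, adjusted p = 6.83e-05). JUNB, a subunit of AP-1, had 97.3, 96.7, and 79.4 CPM in non-treated and 96.6, 111, and 106 CPM in mercury-treated cells at 12 h, and 94.8, 88.8, and 102 CPM in non-treated and 191, 177, and 169.5 CPM in mercury-treated cells at 24 h. Here too the groups overlapped at 12 h and were separate at 24 h, with a difference of 0.71 ± 0.17 (SE, adjusted p = 0.0232). GADD45B, a stress-response protein listed among both p53 targets and targets of YAP and SRF, had 68.8, 59.3, and 56.05 CPM in non-treated and 122, 125, and 115 CPM in mercury-treated cells at 12 h, and 62.8, 62.1, and 60.01 CPM in non-treated and 205, 186, and 183 CPM in mercury-treated cells at 24 h. Its LFC was 0.97 at 12 h and 1.63 at 24 h, a difference of 0.66 ± 0.15 (SE, adjusted p = 0.0203).

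NXF1, the main receptor for export of mRNA from the nucleus, had 30.2, 30.6, and 30.9 CPM in non-treated and 27.8, 34.0, and 38.7 CPM in mercury-treated cells at 12 h, and 24.2, 21.8, and 25.4 CPM in non-treated and 57.3, 59.5, and 60.8 CPM in mercury-treated cells at 24 h. At 12 h it did not pass (LFC 0.14, adjusted p = 0.662), and at 24 h it rose by 1.31, a difference of 1.17 ± 0.25 (SE, adjusted p = 0.00881). ESM1, a secreted proteoglycan, had 18.2, 18.2, and 17.8 CPM in non-treated and 60.97, 56.02, and 56.3 CPM in mercury-treated cells at 12 h, and 7.98, 7.38, and 8.37 CPM in non-treated and 58.5, 50.5, and 53.2 CPM in mercury-treated cells at 24 h. The libraries with mercury overlapped between time points, whereas the non-treated libraries at 24 h lay below those at 12 h, so that the difference of 1.09 ± 0.28 (SE, adjusted p = 0.0483) came with a fall in the controls (-1.19, adjusted p = 0.00149). ADM, the precursor of the peptide adrenomedullin, had 174, 169, and 163 CPM in non-treated and 169, 193, and 193 CPM in mercury-treated cells at 12 h, and 144, 143, and 162 CPM in non-treated and 289.5, 241, and 270.3 CPM in mercury-treated cells at 24 h, and its difference was 0.70 ± 0.14 (SE, adjusted p = 0.0054). BRD2, a reader of acetylated histones, was at an LFC of 0.12 (adjusted p = 0.435) and then 0.81, a difference of 0.69 ± 0.13 (SE, adjusted p = 0.00251).

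The promoters of NXF1, ESM1, JUNB, ADM, and GADD45B are shown because each holds the letters TATAAA on the strand of the gene 20 to 40 bases before the start site. They are RefSeq sequences of GRCh38.p14, 300 bases each, from 250 before to 50 after the start, written 5′ to 3′ in the direction of the gene with TATAAA in capitals on either strand. NXF1 lies on the minus strand at chr11:62805391-62805690, ESM1 on the minus strand at chr5:54985544-54985843, JUNB on the plus strand at chr19:12791236-12791535, ADM on the plus strand at chr11:10304823-10305122, and GADD45B on the plus strand at chr19:2475877-2476176.
NXF1: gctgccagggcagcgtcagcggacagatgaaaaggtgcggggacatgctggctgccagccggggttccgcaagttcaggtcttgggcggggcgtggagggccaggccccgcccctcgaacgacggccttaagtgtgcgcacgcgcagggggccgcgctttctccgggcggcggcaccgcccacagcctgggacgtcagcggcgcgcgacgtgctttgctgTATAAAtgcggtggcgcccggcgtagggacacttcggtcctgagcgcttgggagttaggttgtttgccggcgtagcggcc
ESM1: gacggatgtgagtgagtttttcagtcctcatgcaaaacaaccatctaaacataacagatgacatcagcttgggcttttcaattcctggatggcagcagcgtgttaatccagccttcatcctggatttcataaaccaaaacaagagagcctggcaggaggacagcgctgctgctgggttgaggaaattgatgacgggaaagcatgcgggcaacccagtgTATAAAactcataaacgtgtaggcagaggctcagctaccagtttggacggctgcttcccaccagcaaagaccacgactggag
JUNB: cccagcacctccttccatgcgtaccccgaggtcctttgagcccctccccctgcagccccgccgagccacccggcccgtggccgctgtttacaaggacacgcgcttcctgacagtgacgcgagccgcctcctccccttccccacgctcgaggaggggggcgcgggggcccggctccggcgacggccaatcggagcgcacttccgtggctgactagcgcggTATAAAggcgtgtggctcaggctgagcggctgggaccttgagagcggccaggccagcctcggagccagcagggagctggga
ADM: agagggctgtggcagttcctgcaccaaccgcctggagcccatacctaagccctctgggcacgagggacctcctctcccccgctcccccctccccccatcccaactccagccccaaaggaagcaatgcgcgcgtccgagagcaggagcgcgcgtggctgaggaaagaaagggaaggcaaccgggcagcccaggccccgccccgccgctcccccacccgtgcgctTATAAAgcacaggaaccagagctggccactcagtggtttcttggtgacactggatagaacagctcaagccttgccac
GADD45B: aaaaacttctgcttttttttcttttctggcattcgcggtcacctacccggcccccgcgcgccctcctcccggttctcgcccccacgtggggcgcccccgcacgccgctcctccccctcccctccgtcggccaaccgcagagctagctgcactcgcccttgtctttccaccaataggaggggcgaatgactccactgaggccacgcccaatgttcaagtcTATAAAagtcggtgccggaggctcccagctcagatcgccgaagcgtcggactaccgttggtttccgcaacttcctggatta

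A promoter was found for 63 of the 77 genes, and 4 motifs were searched on both strands: the ARE core TGACNNNGC, the AP-1 site TGANTCA, the TATA motif TATAAA, and the CArG box by its name, of which the first 2 can share the letters TGA. TATAAA was in 8 of 21 promoters of strengthened rises (38.1%), namely those of NXF1, ESM1, ABCC2, KLHL21, JUNB, ADM, GADD45B, and UCHL1, against 12% of 27305 promoters in all and 5.42% of the 9428 that belong to genes tested. On the gene strand 20 to 40 bases upstream it was in 5 of the 21 (23.8%), against 2.55% of all and 1.57% of those tested. Among promoters of strengthened falls it was in 1 of 21 (4.76%), that of IL7R, where it also lay in this window on the gene strand. The window also held it for ID1, 1 of 3 faded falls. The same was true of HEXIM1, 1 of 5 genes that ended higher with opposite signs. The ARE core was in 2 of 21 strengthened rises (9.52%, NXF1 and KLHL21), against 13.6% of all promoters and 15.2% of those tested, and in none of the 5 promoters found for the 7 NRF2 targets. The AP-1 site was in 3 of 21 strengthened rises (14.3%: KLHL21, PLAUR, and MAP2K3) against 7.76% of all promoters and 4.5% of those tested, and the CArG box in none of the 21 against 1.29% and 1.07%. These are matches of letters in a short window, and binding was not measured.

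Other strengthened rises were secreted or surface proteins and single members of several pathways. MIR22HG, the host gene of the microRNA miR-22, had 19.9, 12.3, and 23.1 CPM in non-treated and 25.4, 39.5, and 27.2 CPM in mercury-treated cells at 12 h, and 17.3, 19.1, and 14.4 CPM in non-treated and 83.1, 79.03, and 65.4 CPM in mercury-treated cells at 24 h, a difference of 1.43 ± 0.30 (SE, adjusted p = 0.00581). The libraries with 24 h of mercury were higher than all others, and those with 12 h were above their controls. SAT1, which starts the breakdown of polyamines by acetylating spermidine and spermine, had 46.1, 54.04, and 45.3 CPM in non-treated and 94.1, 115, and 92.2 CPM in mercury-treated cells at 12 h, and 34.5, 28.3, and 38.7 CPM in non-treated and 154, 132, and 153 CPM in mercury-treated cells at 24 h. Its LFC grew from 1.06 to 2.11, a difference of 1.05 ± 0.21 (SE, adjusted p = 0.00271), and it was the only one of 15 polyamine and one-carbon genes to pass. The median difference of that list was 0.34, with 11 members above 0 and 4 below. UBXN8, a protein of the endoplasmic reticulum membrane, had 20.4, 24.1, and 24.4 CPM in non-treated and 27.8, 38.9, and 23.4 CPM in mercury-treated cells at 12 h, and 13.7, 22.1, and 20.8 CPM in non-treated and 48.5, 49.9, and 55.8 CPM in mercury-treated cells at 24 h, with overlap at 12 h and none at 24 h (1.06 ± 0.27 SE, adjusted p = 0.0387).

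CLU, a secreted chaperone, had 39.7, 39.8, and 35.9 CPM in non-treated and 93.7, 101, and 93.5 CPM in mercury-treated cells at 12 h, and 45.8, 46.7, and 32.9 CPM in non-treated and 214, 223, and 187 CPM in mercury-treated cells at 24 h, and the LFC of 1.32 at 12 h became 2.31 at 24 h, a difference of 0.99 ± 0.22 (SE, adjusted p = 0.0121). PLAUR, the urokinase receptor, went from 1.02 to 1.86 (0.84 ± 0.15 SE, adjusted p = 0.000418), and KLHL21, an adaptor of the CUL3 ubiquitin ligase, from 1.17 to 2.11 (0.94 ± 0.16 SE, adjusted p = 0.000418). ADAMTS1, an extracellular protease, differed by 1.01 ± 0.23 (SE, adjusted p = 0.0146), and STC1, a secreted glycoprotein, by 0.82 ± 0.16 (SE, adjusted p = 0.00251). RSRP1, on the list of splicing factors, differed by 0.96 ± 0.22 (SE, adjusted p = 0.0214), with overlap between time points of mercury and lower non-treated libraries at 24 h. The other strengthened rises were PHLDA2 (0.61), MAP2K3, which activates the kinase p38 (0.54), SYF2 (0.53), OCIAD1 (0.51), and UCHL1 (0.48), each given as its difference. In all 28 genes the mercury-treated libraries at 24 h lay above the non-treated ones, at 12 h this held for 19, and in 25 the libraries with 24 h of mercury lay above those with 12 h. Of all genes tested, 18.9%, 16.4%, and 11.4% lay above in these 3 comparisons, and the choice of the genes nearly fixes the counts. Of the genes named here, UBXN8, ESM1, RSRP1, JUNB, GADD45B, and ADAMTS1 did not pass in all 12 fits that left out 1 library. In this order, they passed in 3, 0, 7, 5, 9, and 8 of the 12 fits. The highest adjusted p was 0.182 for UBXN8 and 0.119 for ESM1, both without replicate 1 of non-treated 24 h. It was 0.107 for RSRP1 without replicate 1 of mercury 24 h and 0.12 for GADD45B without replicate 1 of non-treated 12 h. Without replicate 2 of non-treated 12 h, it was 0.101 for JUNB and 0.111 for ADAMTS1. The 5 genes given by their difference alone also did not pass in all 12 fits, with highest adjusted p from 0.0719 (OCIAD1) to 0.165 (SYF2).

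**Figure D2:**
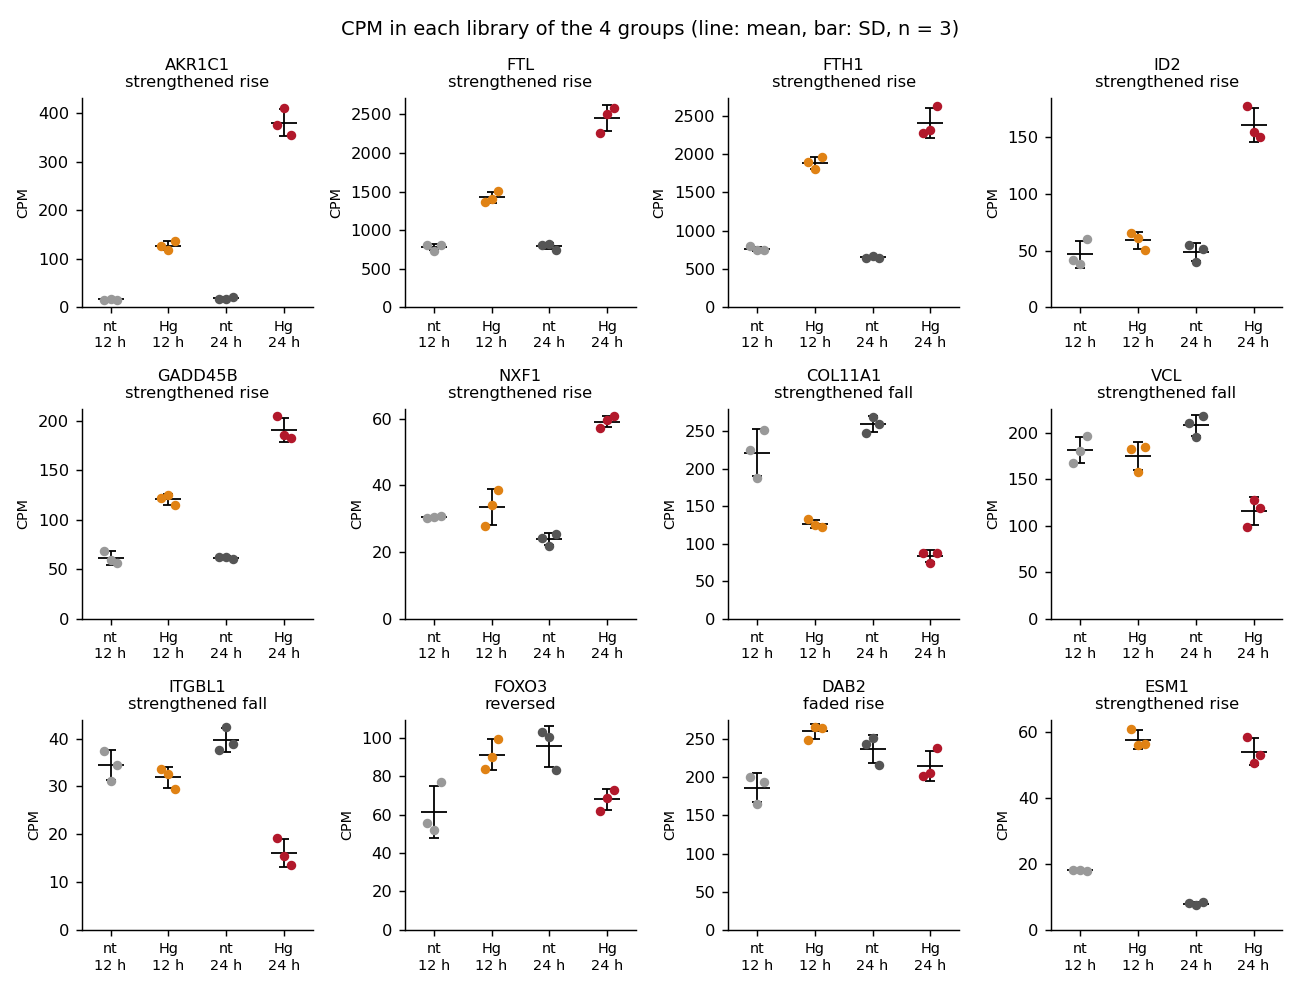
CPM in each of the 12 libraries for AKR1C1, FTL, FTH1, ID2, GADD45B, NXF1, COL11A1, VCL, ITGBL1, FOXO3, DAB2, and ESM1, as points by treatment (nt, non-treated; Hg, mercury) and time, with the mean of each group as a line and the SD as a bar (n = 3), from 0 on each axis. In AKR1C1, FTL, FTH1, ID2, GADD45B, and NXF1 the libraries with 24 h of mercury are the highest, in COL11A1, VCL, and ITGBL1 they are the lowest, and in FOXO3 the order of treated and non-treated libraries turns over between 12 h and 24 h.

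The strengthened falls included genes of the extracellular matrix and of its links to the cytoskeleton. Of 48 collagen, laminin, and integrin genes, 3 differed between time points, all below 0 (COL11A1, COL8A1, and COL6A1), and the median of the list was -0.09, with 32 members below 0 and 16 above. Over all genes tested, 0.324% differed below 0, and 6180 lay below 0 and 6160 above. Such a median was not particular to this list. It was also -0.09 for G2 and mitosis genes (43 below 0 and 26 above) and for ER chaperone and unfolded protein response genes (31 and 12). At 24 h, 15 of the 48 genes were lower with mercury and 8 higher, against 7 and 7 at 12 h. Of all genes tested, 13.9% were lower and 13.9% higher at 24 h, and 7.16% and 8.89% at 12 h, so the 8 higher genes were near the background. COL11A1, a chain of fibrillar collagen (chromosome 1 of GRCh38, 102876467 to 103108872, minus strand), had 225, 188, and 251 CPM in non-treated and 133, 125, and 122 CPM in mercury-treated cells at 12 h, and 248, 269.6, and 260 CPM in non-treated and 88.1, 73.8, and 87.2 CPM in mercury-treated cells at 24 h. It was already lower at 12 h (LFC -0.81) and was lower again at 24 h (-1.64), without overlap between any of the mercury-treated and non-treated libraries, and the difference was -0.83 ± 0.14 (SE, adjusted p = 0.000418). COL8A1 did not pass at 12 h (-0.10, adjusted p = 0.594) and was lower at 24 h (-0.76), a difference of -0.66 ± 0.16 (SE, adjusted p = 0.0229). For COL6A1, a chain of the microfibrillar collagen VI, the LFC was -0.23 (adjusted p = 0.139) and then -0.85, a difference of -0.63 ± 0.15 (SE, adjusted p = 0.0229).

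VCL, vinculin, which ties integrin adhesions to actin (chromosome 10 of GRCh38, 73995193 to 74121363, plus strand), had 168, 181, and 196 CPM in non-treated and 182, 158, and 185 CPM in mercury-treated cells at 12 h, and 210.4, 196, and 218 CPM in non-treated and 98.8, 128, and 119 CPM in mercury-treated cells at 24 h. The groups overlapped at 12 h, and every library with 24 h of mercury lay below all others. The difference was -0.80 ± 0.14 (SE, adjusted p = 0.000477). Among 37 targets of YAP and SRF, VCL and DLC1 differed below 0 and GADD45B above, the median was -0.24, and 27 members lay below 0 against 10 above. Over all genes tested, 0.624% differed in either direction, and 6180 lay below 0 and 6160 above. Other actin-associated proteins among the strengthened falls were LMO7 (-0.68 ± 0.13 SE, adjusted p = 0.00271), LIMA1 (-0.56 ± 0.13 SE, adjusted p = 0.015), and MARCKS (-0.48 ± 0.11 SE, adjusted p = 0.0229), of which MARCKS had already fallen at 12 h (LFC -0.86). TUBA1A, an alpha-tubulin, was the only one of 14 tubulin genes called (-0.53 ± 0.14 SE, adjusted p = 0.0476), and 26.7% of its 3′ stretches are shared with TUBA1B, TUBA1C, or pseudogenes.

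The largest strengthened falls were of genes at low levels. RNF150, which encodes a RING finger protein, had 17.3, 18.8, and 12.1 CPM in non-treated and 15.96, 9.71, and 15.4 CPM in mercury-treated cells at 12 h, and 21.9, 22.8, and 23.1 CPM in non-treated and 6.29, 7.75, and 5.95 CPM in mercury-treated cells at 24 h, a difference of -1.52 ± 0.35 (SE, adjusted p = 0.0167). ITGBL1, a secreted protein related to integrin beta chains, had 37.5, 31.2, and 34.6 CPM in non-treated and 33.6, 32.7, and 29.4 CPM in mercury-treated cells at 12 h, and 37.6, 42.4, and 38.95 CPM in non-treated and 19.2, 15.5, and 13.6 CPM in mercury-treated cells at 24 h. The libraries overlapped at 12 h and were far apart at 24 h, when the LFC was -1.30, a difference of -1.18 ± 0.23 (SE, adjusted p = 0.00271). NLGN1, a synaptic adhesion protein, had 37.2, 38.6, and 34.3 CPM in non-treated and 38.5, 34.6, and 32.97 CPM in mercury-treated cells at 12 h, and 52.3, 40.6, and 50.2 CPM in non-treated and 23.3, 17.97, and 25.1 CPM in mercury-treated cells at 24 h, and its difference was -1.06 ± 0.24 (SE, adjusted p = 0.02). PLPP3, a phosphatase of lysophosphatidic acid, differed by -1.15 ± 0.27 (SE, adjusted p = 0.0232), with 23.6% of its 3′ stretches shared with another annotated gene.

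NMT2, a protein myristoyltransferase, had 88.7, 75.04, and 85.6 CPM in non-treated and 72.8, 83.9, and 86.4 CPM in mercury-treated cells at 12 h, and 124, 152, and 117 CPM in non-treated and 61.7, 70.7, and 78.97 CPM in mercury-treated cells at 24 h. The libraries with mercury overlapped between time points, whereas the non-treated libraries were higher at 24 h than at 12 h (0.66, adjusted p = 0.000656), so that the difference of -0.86 ± 0.17 (SE, adjusted p = 0.00335) came with a rise in the controls. The same arm moved in HCFC1R1 (-0.84 ± 0.20 SE, adjusted p = 0.023, non-treated change 0.53, adjusted p = 0.0212). SLC9A3-AS1, an antisense RNA of the SLC9A3 locus, had at most 3 counts in each library with 24 h of mercury, and its level there was at least 10.5-fold lower than the mean of 10.3 CPM in non-treated cells, with the floor of 3 counts taken per library and covering counting error only. GTSE1, a regulator of p53 and mitosis, was the only one of 69 genes of G2 and mitosis called (-0.72 ± 0.18 SE, adjusted p = 0.036), although 44 of the 69 were lower with mercury at 24 h and 33 at 12 h, beside 13.9% and 7.16% of all genes. The remaining strengthened falls were NAV1, ANKRD13A, FGF5, PRR11, IL7R, COX20, NUCKS1, and PPDPF, with differences from -0.70 to -0.48. In all 24 genes the mercury-treated libraries at 24 h lay below the non-treated ones, and at 12 h this held for 11, beside 19.1% and 16.3% of all genes tested, counts that the choice of the genes favours. Without certain libraries, RNF150, NLGN1, PLPP3, HCFC1R1, COL8A1, COL6A1, GTSE1, LIMA1, MARCKS, and TUBA1A did not pass, in this order with adjusted p = 0.0749 without replicate 3 of mercury 12 h, 0.104 without replicate 2 of mercury 24 h, 0.189 without replicate 3 of mercury 12 h, 0.128 without replicate 3 of mercury 12 h, 0.114 without replicate 3 of mercury 12 h, 0.123 without replicate 3 of mercury 24 h, 0.291 without replicate 3 of mercury 12 h, 0.0805 without replicate 3 of mercury 24 h, 0.192 without replicate 1 of mercury 12 h, and 0.179 without replicate 3 of non-treated 24 h. In the same order, these genes passed in 7, 9, 4, 5, 4, 6, 4, 8, 6, and 3 of the 12 fits that left out 1 library. The 8 genes from NAV1 to PPDPF did not pass in all 12 fits either, with highest adjusted p from 0.109 (ANKRD13A) to 0.258 (FGF5).

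In 7 genes, a rise at 12 h had faded at 24 h, and several of them act in adhesion and the cytoskeleton. DAB2, an adaptor of clathrin-mediated endocytosis (chromosome 5 of GRCh38, 39371675 to 39462300, minus strand), had 201, 165, and 194 CPM in non-treated and 249.2, 266, and 265 CPM in mercury-treated cells at 12 h, and 244, 251, and 217 CPM in non-treated and 202, 206, and 238 CPM in mercury-treated cells at 24 h. The mercury-treated libraries lay above their controls at 12 h and overlapped with them at 24 h. The LFC was 0.48 and then -0.14, a difference of -0.62 ± 0.13 (SE, adjusted p = 0.00733), and the non-treated libraries themselves were higher at 24 h (0.35, adjusted p = 0.0347). DLC1, a GTPase-activating protein, had 114, 94.2, and 101 CPM in non-treated and 168, 154, and 158 CPM in mercury-treated cells at 12 h, and 107, 80.2, and 92.3 CPM in non-treated and 96.3, 96.1, and 92.8 CPM in mercury-treated cells at 24 h. In contrast with DAB2, its controls overlapped between time points and the mercury-treated libraries fell (-0.75, adjusted p = 3.17e-06), with a difference of -0.61 ± 0.16 (SE, adjusted p = 0.045).

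HSPA5, the chaperone BiP of the endoplasmic reticulum, had 962, 926, and 878 CPM in non-treated and 1355, 1481, and 1415 CPM in mercury-treated cells at 12 h, and 962, 1037, and 937 CPM in non-treated and 1113, 1155, and 1125 CPM in mercury-treated cells at 24 h. It remained higher with mercury at 24 h, with an LFC of 0.21 (adjusted p = 0.0296) after 0.62 at 12 h, and the difference was -0.41 ± 0.11 (SE, adjusted p = 0.0476). It was the only one of 43 ER chaperone and unfolded protein response genes to pass. The median of that list was -0.09, with 31 members below 0 and 12 above. PDLIM5, an actin-associated protein, differed by -0.59 ± 0.15 (SE, adjusted p = 0.0483), and IGF2BP2, an mRNA-binding protein, by -0.53 ± 0.13 (SE, adjusted p = 0.0303). The splicing regulator MBNL1 differed by -0.51 ± 0.13 (SE, adjusted p = 0.0483), and the collagen receptor DDR2 by -0.48 ± 0.12 (SE, adjusted p = 0.036). In all 7 genes the libraries with 24 h of mercury lay below those with 12 h, beside 11.2% of all genes tested, as the choice of the genes nearly fixes. None of the 7 passed in all 12 fits that left out 1 library (DAB2 in 11, HSPA5 and DDR2 in 0), with the highest adjusted p = 0.0722 without replicate 2 of non-treated 12 h, 0.236 without replicate 1 of non-treated 24 h, 0.177 without replicate 2 of non-treated 12 h, 0.166 without replicate 2 of mercury 12 h, 0.174 without replicate 2 of non-treated 12 h, 0.128 without replicate 3 of mercury 12 h, and 0.152 without replicate 2 of mercury 12 h, in the order DAB2, DLC1, PDLIM5, IGF2BP2, MBNL1, DDR2, and HSPA5.

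FOXO3 and PCCA-DT reversed. FOXO3, a transcription factor of the forkhead family (chromosome 6 of GRCh38, 108559835 to 108684774, plus strand), had 55.4, 51.9, and 76.7 CPM in non-treated and 83.5, 90.03, and 99.5 CPM in mercury-treated cells at 12 h, and 103, 100.2, and 83.1 CPM in non-treated and 62.0, 68.5, and 73.02 CPM in mercury-treated cells at 24 h. Its mercury-treated libraries lay above the controls at 12 h (LFC 0.57) and below them at 24 h (-0.49), without overlap at either time. The difference was -1.06 ± 0.19 (SE, adjusted p = 0.000536), and the non-treated libraries rose between the times (0.63, adjusted p = 0.00436) while the mercury-treated libraries did not pass (-0.43, adjusted p = 0.0587). PCCA-DT, a noncoding transcript that starts beside PCCA, had 16.2, 16.7, and 22.3 CPM in non-treated and 33.6, 29.8, and 23.04 CPM in mercury-treated cells at 12 h, and 30.6, 33.2, and 27.1 CPM in non-treated and 20.1, 17.04, and 19.5 CPM in mercury-treated cells at 24 h, and its difference was -1.32 ± 0.31 (SE, adjusted p = 0.0232). FOXO3 passed without any single library, whereas PCCA-DT did not (adjusted p = 0.102 without replicate 1 of mercury 12 h).

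A fall at 12 h had faded in ID1, ATP6V0B, and CSTF1. ID1, like ID2 an inhibitor of helix-loop-helix factors, had 707, 614, and 579 CPM in non-treated and 313, 271, and 297 CPM in mercury-treated cells at 12 h, and 523, 522, and 560.3 CPM in non-treated and 308, 338, and 390.2 CPM in mercury-treated cells at 24 h. It was lower with mercury at both times, by an LFC of -1.11 and -0.63, with a difference of 0.48 ± 0.13 (SE, adjusted p = 0.0499). CSTF1, a subunit of the mRNA cleavage stimulation factor, had 31.04, 38.3, and 22.8 CPM in non-treated and 21.3, 14.9, and 17.9 CPM in mercury-treated cells at 12 h, and 14.2, 15.99, and 21.9 CPM in non-treated and 17.3, 18.9, and 31.7 CPM in mercury-treated cells at 24 h. The difference of 1.15 ± 0.28 (SE, adjusted p = 0.0232) came with a fall in the non-treated libraries (-0.82, adjusted p = 0.0115), as it did for ATP6V0B, a subunit of the proton pump of lysosomes (0.85 ± 0.21 SE, adjusted p = 0.0387, non-treated change -0.73, adjusted p = 0.00388). None of the 3 passed in all fits without 1 library, with adjusted p = 0.229 without replicate 1 of non-treated 12 h, 0.154 without replicate 1 of mercury 12 h, and 0.195 without replicate 3 of mercury 24 h, in the order ID1, ATP6V0B, and CSTF1.

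Of the 13 genes with opposite signs at the 2 times, HEXIM1, an inhibitor of the transcription elongation factor P-TEFb, had 58.2, 65.8, and 50.3 CPM in non-treated and 39.3, 47.3, and 48.6 CPM in mercury-treated cells at 12 h, and 52.8, 49.8, and 69.2 CPM in non-treated and 104, 92.3, and 77.7 CPM in mercury-treated cells at 24 h. The mercury-treated libraries lay below their controls at 12 h, where the LFC of -0.36 did not pass (adjusted p = 0.143), and above them at 24 h (0.67), a difference of 1.03 ± 0.23 (SE, adjusted p = 0.0146). GAS5, a host gene of small nucleolar RNAs, differed by 0.65 ± 0.17 (SE, adjusted p = 0.0483), with a fall in the non-treated libraries (-0.63, adjusted p = 0.00142). ZNF493 (1.52), WDR47 (1.87), and PPP6C (0.53) were also higher at 24 h only. WDR19 had at most 3 counts in each non-treated library at 24 h, and its mean of 4.23 CPM with mercury was at least 4.6-fold higher than the floor of 3 counts. The 7 genes that ended lower were WAC-AS1 (-0.92), SLC25A39 (-0.84), ARL3 (-0.77), NABP2 (-0.75), PTMS (-0.68), CDC42EP3 (-0.61), and RBFOX2 (-0.59), of which WAC-AS1 shares 39.3% of its 3′ stretches with other genes. These genes beyond GAS5 fall outside the rule for named genes and are named for completeness after their values were seen. None of the 13 passed in all fits without 1 library.

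The arms of the comparison contributed unequally between classes. Over all genes, 386 (3.13%) changed between 12 h and 24 h with mercury and 189 (1.53%) in non-treated cells. Of the 77 genes, 47 changed with mercury, 17 in non-treated cells, none in both, and 13 in neither, and since the difference is made from these changes, the shares are no independent test. The strengthened rises changed with mercury in 24 of 28 cases and in non-treated cells in 2, ESM1 and RSRP1. In 11 of the 28, however, the non-treated libraries at 24 h lay below those at 12 h without overlap. These were NXF1, ESM1, SAT1, HMOX1, RSRP1, KLHL21, PLAUR, STC1, ADM, FTH1, and MAP2K3. Of all genes tested, 8.28% lay below in this way, and the choice of the genes favours a higher share. The strengthened falls changed with mercury in 16 of 24 and in non-treated cells in 4 (NMT2, HCFC1R1, PRR11, and NUCKS1). In 10 of the 24, the non-treated libraries at 24 h lay above those at 12 h without overlap, beside 8.66% of all genes tested. In the faded falls and the genes that ended lower with opposite signs, the non-treated change passed more often, in 2 of 3 and 4 of 7. The arms moved in opposite directions in 64 of the 77 genes, as a large difference favours.

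**Figure D3:**
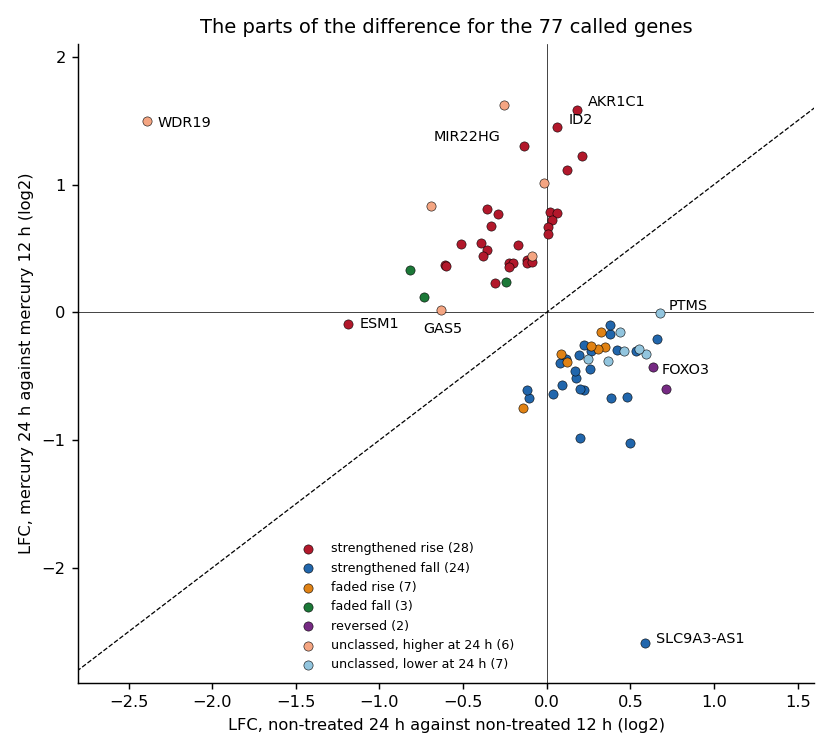
Log2 change from 12 h to 24 h in mercury-treated cells (vertical) against that in non-treated cells (horizontal) for the 77 genes, coloured by class, with a dashed line for equal change. AKR1C1 and ID2 lie high near a non-treated change of 0, ESM1 lies near a mercury change of 0 with a non-treated change below -1, and PTMS lies at a mercury change of -0.01. The positions of WDR19 and SLC9A3-AS1 rest on groups at the floor of 3 counts.

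Libraries from 1.5 h, 3 h, and 6 h, which are not part of the difference between time points, show when these effects began. They are not independent of the choice of the 77 genes, because all 60 libraries shared the filter, scaling, and estimate of spread. The 12 h counts given beside them come from libraries that are part of the difference. Among all genes tested, mercury changed 70, 191, and 923 genes at these times. The number of the 28 strengthened rises that passed above the controls of the same time was 4, 10, 17, and 18 for 1.5 h, 3 h, 6 h, and 12 h, beside 0.478%, 1.39%, 4.49%, and 8.89% of all genes. HMOX1 rose from the start, with LFCs of 1.97, 4.69, and 5.82 at these times. AKR1C1 did not pass at 3 h (0.31, adjusted p = 0.661) and rose by 1.54 at 6 h. JUNB followed another course, with an LFC of 1.18 at 1.5 h and 0.95 at 3 h, values that did not pass at 6 h (0.15) and 12 h (0.20), and 0.91 at 24 h. ID2 was lower at 1.5 h (-0.75, adjusted p = 0.00382) and 6 h (-0.75, adjusted p = 0.00166) before its rise of 1.71 at 24 h. ADM was higher at 1.5 h (0.43, adjusted p = 0.0232) and lower at 6 h (-0.32, adjusted p = 0.0403).

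No strengthened fall had passed at 1.5 h or 3 h in edgeR, where 0 and 4 of the 24 were lower at an unadjusted p under 0.05, and 10 of 24 were lower at 6 h and 9 at 12 h, beside 2.99% and 7.16% of all genes. COL11A1 fell by 0.84 at 6 h and MARCKS by 0.74. VCL, COL8A1, and COL6A1 had LFCs of -0.17, -0.09, and -0.08 at 6 h, none of which passed. TUBA1A was higher at 6 h (0.34, adjusted p = 0.0168) before it was lower at 24 h. Of the faded rises, 5 of 7 were already higher at 6 h, among them HSPA5 with 0.70, and DLC1 passed at 3 h (0.46, adjusted p = 0.00492). FOXO3 was higher at 3 h (0.64, adjusted p = 0.000763) and at 0.02 at 6 h. ID1 fell by 1.02 at 1.5 h and was lower at every time.

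**Figure D4:**
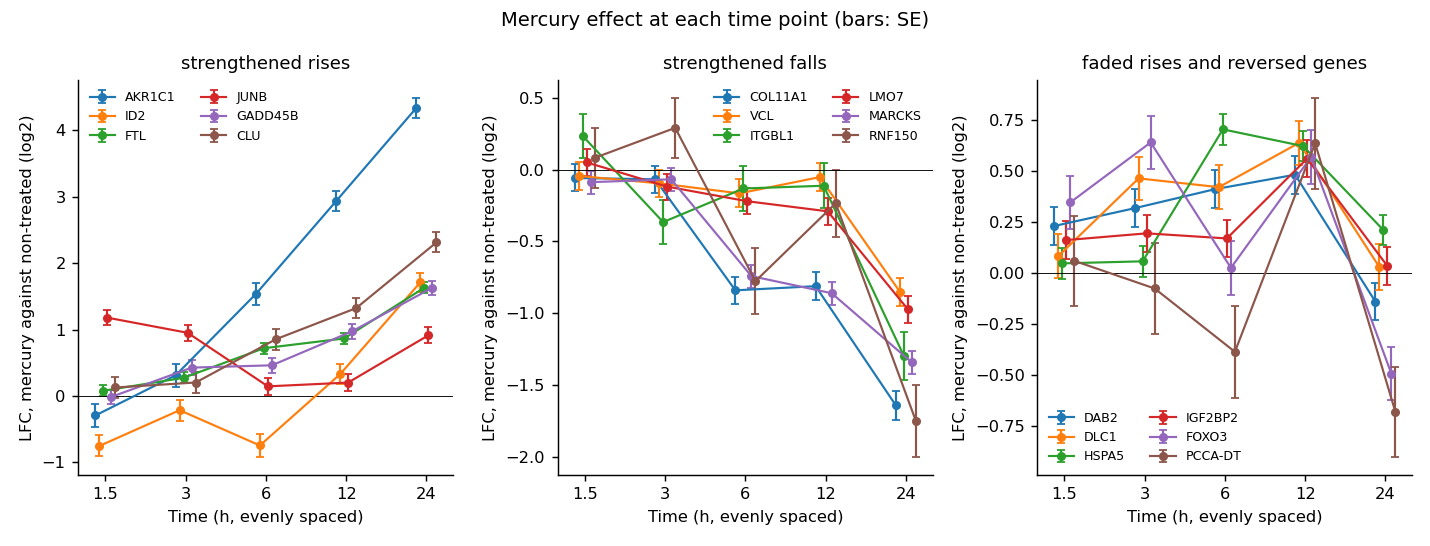
LFC of mercury-treated over non-treated cells at 1.5 h, 3 h, 6 h, 12 h, and 24 h (log2 scale, time points evenly spaced) for 6 strengthened rises, 6 strengthened falls, and 6 faded or reversed genes, with standard errors as bars and separate vertical scales. JUNB starts at 1.18, is at 0.15 by 6 h, and ends at 0.91, AKR1C1 climbs from 6 h on, VCL and ITGBL1 drop between 12 h and 24 h, and FOXO3 crosses 0.

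The change from 12 h to 24 h with mercury was then compared with that in cells treated with arsenic or cadmium, a comparison in which the non-treated libraries cancel but which uses the mercury libraries that chose the 77 genes. Over all genes, 25 (0.203%) differed from arsenic and 172 (1.39%) from cadmium. Of the 77 genes, 10 differed from arsenic and 21 from cadmium, 4 of them from both (ESM1, KLHL21, ADM, and PHLDA2). In 8 of the 10 and 17 of the 21, the change with mercury was the higher. All 3 metals share the non-treated libraries, so their own differences between time points are given side by side only. The strengthened rises had a median difference of 0.83 with mercury, 0.44 with arsenic, and 0.17 with cadmium. In the same order, the strengthened falls had -0.685, -0.588, and -0.391, and the faded rises -0.527, -0.419, and -0.543. Of the 24 strengthened falls, 17 also differed between time points with arsenic and 1 with cadmium. Over all 12341 genes tested, 194 and 47 did, and the shared non-treated libraries favour such overlap.

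Of the 7 NRF2 targets called, 5 had a higher change from 12 h to 24 h with mercury than with cadmium. None differed by the test from arsenic. With cadmium, mean CPM was lower at 24 h than at 12 h for HMOX1 (952.5 to 358.9), FTH1 (1357 to 1206), and SQSTM1 (496 to 457). It was higher at 24 h for AKR1C1 (41.98 to 62.22) and FTL (1087 to 1329). The change of HMOX1 with mercury did not pass its own test. HMOX1 differed between time points by 0.98 with mercury, 1.21 with arsenic, and -0.80 with cadmium, and mercury minus cadmium was 1.78 (adjusted p = 1.77e-10). AKR1C1 differed by 1.40, 1.68, and 0.38 (1.02 against cadmium, adjusted p = 0.00115), and SQSTM1 by 0.61, 0.47, and -0.13 (0.74, adjusted p = 0.000168). FTL and FTH1 gave 0.49 (adjusted p = 0.0114) and 0.52 (adjusted p = 0.00317) against cadmium, and ABCC2 and AKR1B1 did not pass with 0.36 (adjusted p = 0.601) and 0.37 (adjusted p = 0.211). Against arsenic, the values were -0.23 (adjusted p = 0.769) for HMOX1, -0.27 (adjusted p = 0.726) for AKR1C1, and -0.05 (adjusted p = 0.943) for FTH1, which does not show that they were alike.

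Among the regulators and stress proteins, ID2, GADD45B, BRD2, and NXF1 differed from arsenic and not by the test from cadmium, and JUNB and MAP2K3 differed from cadmium (0.61, adjusted p = 0.0485, and 0.70, adjusted p = 0.000673) and not by the test from arsenic (0.39, adjusted p = 0.523, and 0.12, adjusted p = 0.85). ID2 had 1.38 with mercury, 0.05 with arsenic, and 1.39 with cadmium, and mercury minus arsenic was 1.33 (adjusted p = 0.000125). GADD45B had 0.66, -0.65, and 0.43 (1.31 against arsenic, adjusted p = 9.49e-08), and BRD2 0.69, -0.29, and 0.27 (0.97, adjusted p = 3.14e-06). NXF1 gave 1.13 (adjusted p = 0.0177) against arsenic and 0.54 (adjusted p = 0.322) against cadmium. ESM1 was above both, by 1.67 (adjusted p = 0.0032) and 1.34 (adjusted p = 0.00126). HSPA5 went the other way, -0.41 with mercury and -0.65 with cadmium against 0.13 with arsenic, and mercury minus arsenic was -0.54 (adjusted p = 0.00385). For the matrix genes, COL6A1 differed from cadmium (-0.55, adjusted p = 0.04) and COL11A1 from neither (-0.08, adjusted p = 0.923, and -0.45, adjusted p = 0.0912).

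**Figure D5:**
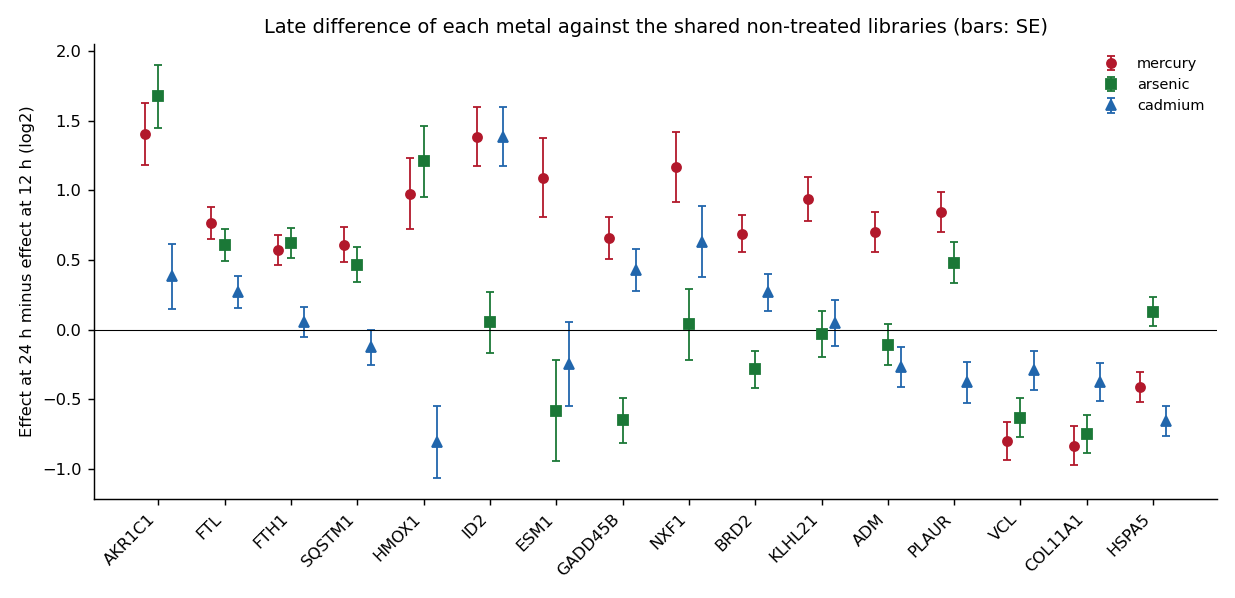
Difference between time points (LFC at 24 h minus LFC at 12 h, log2 scale) for 16 of the named genes with mercury, arsenic, and cadmium, with standard errors as bars; the metals share the non-treated libraries. HMOX1, AKR1C1, FTL, and FTH1 lie above 0 with mercury and arsenic and lower with cadmium, ID2 and GADD45B lie above 0 with mercury and cadmium and lower with arsenic, and VCL and COL11A1 lie below 0 with each metal.

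The other gene lists held few or no genes that differed between time points. In all, 23 of the 77 genes were on at least 1 of 33 lists and 54 on none. ATF4 targets, genes of amino acid supply under stress, were strongly raised at both times, with a median LFC of 1.35 at 12 h and 1.50 at 24 h over 48 genes and a median difference of -0.01. None of them passed in edgeR, with 8 at an unadjusted p under 0.05. DESeq2 called 0 of them and gave no adjusted p to 9. Heat shock genes (42) had medians of 0.71 and 0.86 and none called in edgeR, with 7 at an unadjusted p under 0.05. Their median difference was 0.17, with 30 members above 0 and 12 below. DESeq2 called 0 of the 42 and gave no adjusted p to 7. The 13 mitochondrially encoded genes of the respiratory chain had a median difference of 0.29 and none called in edgeR, with 1 at an unadjusted p under 0.05 and 0 by DESeq2. Autophagy and ubiquitin genes (45) had a median of 0.19 with 37 members above 0 and SQSTM1 alone called.

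The genes that the study names for its RNA sequencing were also not called in edgeR, with 4 of 12 at an unadjusted p under 0.05 and none called by DESeq2. The metallothionein MT2A, which binds metal ions through its cysteines, had 4901, 4042, and 2451 CPM in non-treated and 4544, 4786, and 5248 CPM in mercury-treated cells at 12 h, and 1852, 1759, and 1650 CPM in non-treated and 2824, 2915, and 3028 CPM in mercury-treated cells at 24 h. Its non-treated libraries spread widely at 12 h and fell between the times (-1.12, adjusted p = 0.00024), and the difference was 0.38 ± 0.26 (SE, adjusted p = 0.674). MT1X and MT1E differed by -0.76 ± 0.34 (SE, adjusted p = 0.393) and -0.08 ± 0.15 (SE, adjusted p = 0.917), with 34.7% of the 3′ stretches of MT1X shared with other genes. The zinc transporters SLC30A1, SLC39A10, and SLC39A14 differed by 0.23, -0.15, and -0.04. The amino acid transporters SLC7A5, SLC3A2, SLC7A11, SLC6A9, and SLC1A4 differed by 0.32, 0.41, -0.27, 0.81, and -0.47, and the exporter ABCC1 by 0.20. A p above the threshold does not show that the effect was equal at both times, and standard errors of these differences ranged from 0.14 to 0.38.

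Most calls did not hold in every fit that left out 1 library, since 21 of the 77 genes passed in all 12. Those that did not hold included genes away from the threshold, such as DAB2 (edgeR adjusted p = 0.00733) and RNF150 (0.0167). Of the 77 genes, 20 passed in all 12 fits that left out 1 library and in 6 other fits of the counts: the strengthened rises MIR22HG, AKR1C1, ID2, NXF1, SAT1, CLU, KLHL21, PLAUR, STC1, FTL, ADM, BRD2, SQSTM1, and FTH1, the strengthened falls ITGBL1, NMT2, COL11A1, VCL, and LMO7, and FOXO3. The number of genes called fell to 35 and 32 without replicates 1 and 2 of non-treated 12 h, to 36 and 45 without replicates 1 and 2 of non-treated 24 h, to 34 and 41 without replicates 1 and 3 of mercury 12 h, and to 38, 41, and 51 without replicates 1, 2, and 3 of mercury 24 h. It was 55, 77, and 68 without mercury 12 h replicate 2, non-treated 12 h replicate 3, and non-treated 24 h replicate 3, of which 50, 61, and 52 were among the 77. In the 12 libraries fitted alone, 51 of the 77 genes passed. No gene of the 77 changed the sign of its difference in any of these fits.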

How the data were processed

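The authors prepared 3′ mRNA libraries (QuantSeq 3′ FWD) and sequenced 100-base single-end reads, aligned them to GRCh38 with STAR 2.7.9a (the version per the submitters' processing notes), and counted them on exons of the basic GENCODE 43 annotation in a strand-specific way, leaving out reads on more than 1 gene. The deposited values are these whole-number counts, without normalization, for 62703 genes. A further 92 spike-in rows held 0 counts and were left out. The study tested with DESeq2.

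Here, the counts of all 60 libraries were filtered with filterByExpr, which kept 12341 genes, scaled by TMM, and tested with the quasi-likelihood F test of edgeR 4.0.16 in R 4.3.3, with a coefficient per group and Benjamini-Hochberg adjustment within each comparison. The common biological coefficient of variation was 0.12. Standard errors are the size of the LFC divided by the square root of F. At 2493730 to 3857780 counts per library, 3 counts are about 1 CPM, the floor used. The members of classes and lists were chosen with earlier results of these data known. A class is strengthened where the effect had the same sign and a larger size at 24 h and passed there, faded where it was smaller at 24 h and passed at 12 h, and reversed where both passed with opposite signs. Genes named are the 7 with the largest difference in each strengthened and faded class with a mean of at least 20 counts, reversed genes, up to 3 called members of each list, and the genes the study names; other members are named for completeness, after their values were seen. Alternatives were DESeq2 1.42.0, RLE size factors, other filters, the 12 libraries alone, a replicate block, a test beyond 1 (glmTreat), and leaving out each library. Promoters came from RefSeq (GRCh38.p14), and gene positions and shared 3′ stretches (50 bases in the last 400) from GENCODE 44. Reads were not realigned, and the genetic screens were not analysed here.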

Additional observations from a re-analysis of the deposited data

Results flagged for a closer look

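The 77 genes described above are themselves differences of the mercury effect between time points. Among them, 27 also changed differently between 12 h and 24 h with mercury than with another metal, by the test of that difference in edgeR, and each value below is the log2 change with mercury minus that with the other metal. The mercury libraries are the ones that chose the 77 genes, so sizes above 0 among strengthened rises and below 0 among strengthened falls are favoured.

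Against arsenic, the change with mercury was higher for ESM1 (1.67), ID2 (1.33), GADD45B (1.31), NXF1 (1.13), KLHL21 (0.97), BRD2 (0.97), ADM (0.81), and PHLDA2 (0.60), and lower for HSPA5 (-0.54) and PPDPF (-0.57).

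Against cadmium, the change with mercury was higher for the NRF2 targets HMOX1 (1.78), AKR1C1 (1.02), SQSTM1 (0.74), FTH1 (0.52), and FTL (0.49). It was also higher for the secreted and surface proteins ESM1 (1.34), ADAMTS1 (1.23), PLAUR (1.22), ADM (0.96), CLU (0.83), and STC1 (0.64), and for MIR22HG (1.27), KLHL21 (0.89), MAP2K3 (0.70), JUNB (0.61), PHLDA2 (0.55), and UCHL1 (0.43). It was lower for NAV1 (-0.68), COL6A1 (-0.55), and VCL (-0.51), and for SLC9A3-AS1 by a fitted value of -3.01, which depends on the prior count because its libraries with 24 h of mercury were at the floor. The causes of these differences were not tested, and doses differed between the metals (20, 2.55, and 2.3 µM for mercury, arsenic, and cadmium).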

How the results depend on the processing

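With DESeq2, 123 genes differed between time points (57 above 0 and 66 below), among them all 74 of the 77 genes to which it gave an adjusted p. It counted 45 strengthened rises, 11 faded rises, 4 reversed genes, 5 collagen, laminin, and integrin genes, 366 genes that changed in non-treated cells, and 57 and 297 that differed from arsenic and cadmium. The 12 libraries alone gave 23 genes below 0, 13 strengthened falls, 4 faded rises, and 0 faded falls. RLE size factors gave 4 faded rises and 4 reversed genes, no filter 4 faded rises and 0 faded falls, and a filter at a mean of 20 counts 4 reversed genes. A difference beyond 1 (glmTreat) passed for 0 genes, with 94 at an unadjusted p under 0.05. Without 1 library, the calls ranged from 32 to 77 (reported: 77), from 18 to 36 above 0 and 11 to 42 below, and from 9 to 26 with a size above 1. Strengthened rises ranged from 16 to 29, strengthened falls from 9 to 23, faded rises from 0 to 7, faded falls from 0 to 4, reversed genes from 1 to 4, list members from 11 to 20, NRF2 targets from 4 to 6, and collagen, laminin, and integrin genes from 1 to 3. Mercury changed 1307 to 2001 genes at 12 h and 2613 to 3420 at 24 h, the change between times passed for 45 to 245 genes in non-treated and 178 to 405 in mercury-treated cells, and 16 to 34 and 112 to 190 differed from arsenic and cadmium. Fewer samples enter these fits; other causes were not tested. Signs turned only for genes that were not called. Without 1 library, ABCC1 ranged from -0.013 to 0.469, SLC39A10 from -0.38 to 0.096 (0.054 and 0.002 between), MT1E from -0.158 to 0.008, and SLC39A14 from -0.17 to 0.214 (0.002 without either of 2 libraries). With the replicate number as a block, 72 genes passed, all among the 77. Deviations of libraries with the same number correlated at -0.0794 to 0.0849 (median -0.00406, 18 pairs, 0 above 0.1), and the replicate numbers were therefore not treated as a pairing. Depth limits genes at the floor and standard errors of low genes.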
